A study of Caenorhabditis elegans with 2 samples.

Results

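The worm genes whose names start with rab-, arf-, arl-, snx- or tbc- encode much of the machinery that moves membrane between the compartments of a cell. They were taken by name from the protein-coding genes of the WBcel235 assembly, which gave 53 of 19973, namely 20 rab, 3 arf, 6 arl, 7 snx and 17 tbc genes. The data are chromatin immunoprecipitation sequencing (ChIP-seq) peaks of EGL-43, a zinc finger transcription factor, precipitated with an antibody against GFP. All material came from Caenorhabditis elegans of strain RW12181, which carries the allele st12181[egl-43::TY1::EGFP::3xFLAG] II, a CRISPR insertion that tags the endogenous gene. Whole L4 larvae aged 49 hours, synchronised by bleaching and starvation at the L1 stage, were used in 2 biological replicates of 1 group. Chromatin of all tissues was mixed, and no untagged animals or other stage were analysed here, so binding of EGL-43 at a gene cannot be told apart from background at that gene.

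Rab and Arf proteins are small GTPases that sit on membranes when bound to GTP and recruit the coats, motors and tethers that carry a vesicle to its target. Arl proteins are Arf-like GTPases, several of which act in cilia or on lysosomes. TBC proteins carry the domain that switches Rab proteins off by speeding GTP hydrolysis, and sorting nexins (snx) bind phosphoinositides and sort cargo on endosomes. These genes are known to act in most cell types of the worm, with well studied roles in the intestine, in neurons and in the uptake of yolk by oocytes.

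A gene was counted when the summit of a peak, its highest point, lay from 1000 bp upstream to 500 bp downstream of any of its transcription start sites (TSSs). In the list that the authors made from both replicates and thresholded by the irreproducible discovery rate (IDR), 5 of the 53 genes had such a promoter summit. These were arf-1, rab-14, rab-7, rab-11.1 and rab-18. That is 9.43% (95% Wilson interval 4.10 to 20.3), against 7.56% of the other protein-coding genes, which is 1506 of 19920. The difference of 1.87 percentage points had an interval of -3.48 to 12.7 (Newcombe), so the trafficking genes as a group carried promoter summits at a share near that of all other genes. Wilson and Newcombe intervals cover counting error only, and neighbouring genes can share a summit.

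All 5 were GTPase genes, a class that holds 20 rab, 3 arf and 6 arl genes of the 53. Genes were counted by name group, and the share of this class as a whole was not compared with that of the other genes. Promoter summits were found at 4 of 20 rab genes (20%, Wilson interval 8.07 to 41.6) and at 1 of 3 arf genes, against 7.56% of the other protein-coding genes. None was found at the 17 tbc genes, the 7 snx genes or the 6 arl genes, where a count of 0 leaves Wilson upper bounds of 18.4%, 35.4% and 39.0%. The share of the other genes lies inside the intervals of the arf, arl, snx and tbc genes and just under that of the rab genes. In the replicates' own lists the rab count was 2 of 20 (10%, Wilson interval 2.79 to 30.1) in replicate 1, against 3.94% of the other protein-coding genes, and 3 of 20 (15%, 5.24 to 36.04) in replicate 2, against 4.10%. The share of the other genes thus lay inside the rab interval in replicate 1 and just under it in replicate 2. In the conservative list the rab count was 5 of 20 (25%, 11.2 to 46.9), against 7.21% of the others, which is under the interval. With each summit given only to the gene with the nearest TSS, 2 of the 20 rab genes were left in the series list, against 6.39% of the other protein-coding genes under the same rule. The rab genes are 1 of 5 name groups looked at, and their difference from the other genes was not tested.

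The conservative list, the smaller of the authors' series lists with 3024 peaks against 3146, held 7 of the 53 genes (13.2%, Wilson interval 6.55 to 24.8), against 7.21% of the others. It held the same 5 genes, and in addition arf-6 and rab-6.2. The thresholded list of replicate 1 held 3 genes (5.66%), against 3.94% of the others, and these were arf-1, rab-14 and rab-7. The thresholded list of replicate 2 held 4 genes (7.55%), against 4.10% of the others, and these were arf-1, rab-14, rab-7 and rab-11.1. In all 4 lists the share of the other genes lay inside the interval of the trafficking genes.

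**Figure D1:**
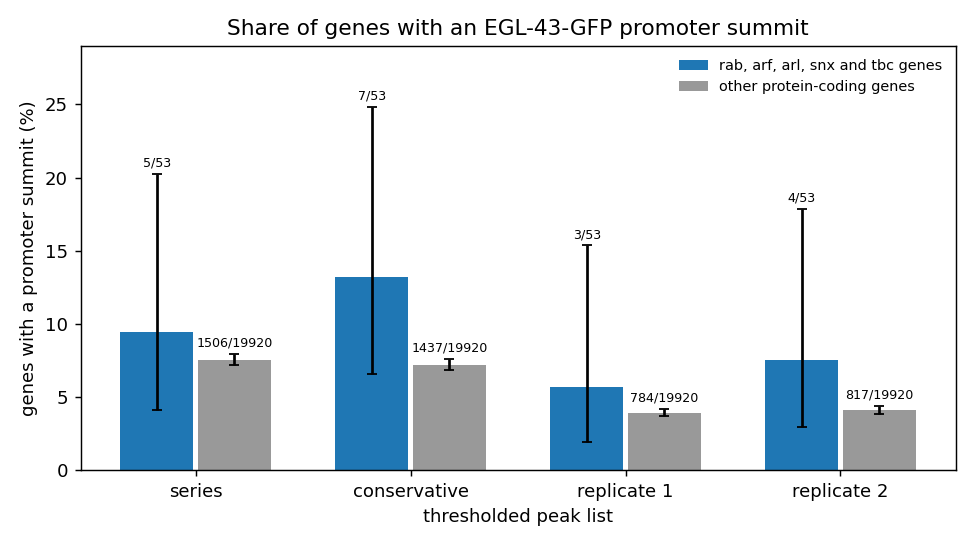
Share of genes with a promoter summit (per cent, bars) in the 4 thresholded lists, for the 53 trafficking genes (blue) and the 19920 other protein-coding genes (grey), with 95% Wilson intervals and the counts above them. The blue bars run from 5.66% to 13.2%, and each of their intervals contains the grey bar beside it.

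The gene with the strongest summit was arf-1 (WBGene00000182), on III 5714886 to 5717586, plus strand. ARF-1 recruits coat proteins to the Golgi. Its peak lay at III 5715702 to 5715818 and had a signal of 262.4 (the authors' value for the peak) in the series list, where it ranked 417 of 3146. In the replicates' own lists arf-1 reached 133 in replicate 1 and 135 in replicate 2, both with the top IDR score of 1000. The summit fell in an intron of the longer transcript, 849 bp downstream of its start, and 380 bp upstream of the internal start of the shorter one at 5716115. The gene therefore counts through that internal start, and with only the most upstream TSS of each gene it was not counted. No other protein-coding gene shared this summit.

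Next was rab-14 (WBGene00004276), on X 15604635 to 15606635, minus strand. RAB-14 acts on endosomes and maturing phagosomes. Its peak at X 15606900 to 15607229 had a signal of 262.2 in the series list, with 125 in replicate 1 and 133 in replicate 2. The summit lay 430 bp upstream of the gene. It also fell in the promoter window of the divergent gene nipi-3, which encodes a Tribbles-type pseudokinase, 904 bp from that gene's start. A second peak, at X 15607536 to 15607865, was just outside the window of rab-14, at 1066 bp from its start, and had a signal of 243. Its summit was nearer to the start of nipi-3, at 15607969, and inside that gene's promoter window.

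The third was rab-7 (WBGene00004271), on II 11965523 to 11966931, minus strand. RAB-7 directs traffic from late endosomes to lysosomes. Its peak at II 11967530 to 11967859 had a signal of 209 in the series list, with 119.96 in replicate 1 and 85.1 in replicate 2. The summit lay 764 bp upstream of rab-7, but only 151 bp upstream of W03C9.5, which is on the same strand between the peak and rab-7. It was also in the window of mex-1, a gene for a zinc finger protein of the early embryo, 942 bp away on the other strand. The nearest TSS was therefore that of W03C9.5, and rab-7 was not counted when each summit went to the gene with the nearest TSS.

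The sequences under these summits are shown because they are the bases beneath the strongest members, together with those of both genes found in the conservative list alone. Each run is the summit base with 50 bases on either side, on the plus strand of ce11 (read from the RefSeq copy of WBcel235), and capitals mark matches to the motifs named after them. They lie at chrIII:5715685-5715785 (arf-1), chrX:15607015-15607115 (rab-14), chrII:11967645-11967745 (rab-7), chrIV:16946908-16947008 (arf-6) and chrX:17222106-17222206 (rab-6.2).

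arf-1: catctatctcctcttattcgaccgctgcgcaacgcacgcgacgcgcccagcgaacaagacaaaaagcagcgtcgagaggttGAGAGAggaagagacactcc
rab-14: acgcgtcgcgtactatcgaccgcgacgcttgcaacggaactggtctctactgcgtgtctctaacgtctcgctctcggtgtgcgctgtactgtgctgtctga
rab-7: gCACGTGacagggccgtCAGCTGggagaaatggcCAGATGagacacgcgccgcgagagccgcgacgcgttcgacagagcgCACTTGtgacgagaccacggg
arf-6: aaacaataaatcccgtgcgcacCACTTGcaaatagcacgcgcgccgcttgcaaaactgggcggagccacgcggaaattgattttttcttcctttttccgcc
rab-6.2: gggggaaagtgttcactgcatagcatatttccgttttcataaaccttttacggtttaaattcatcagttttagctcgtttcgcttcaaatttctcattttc

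The run at arf-1 was 56.4% G or C, that at rab-14 58.4%, that at rab-7 66.3%, that at arf-6 51.5% and that at rab-6.2 35.6%. Over the 5 promoter summits of the series list the G and C content of the same window ran from 56.4% to 66.3% with a median of 58.4%, against a median of 52.5% (quartiles 48.5 and 57.4) at the 1394 other promoter summits. All but arf-1 were thus above the upper quartile of the others. Over whole promoter windows the median was 34.7% in the 53 members and 35.2% in the other genes. Among genes with a promoter summit it was 39.2% in the 5 members and 38.0% in the 1506 others. Base content thus moved with the presence of a summit in both groups, and its part in the result was not tested.

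The motifs sought on both strands were the GATA core GATAA, the AP-1 type site TGANTCA, the E-box CANNTG and the repeat GAGAGA. The E-box letters read the same on both strands, and matches of a motif could overlap each other. The window of rab-7 held 4 E-box matches and that of rab-18 held 3, so 2 of the 5 member windows (40%) had one, against 37.2% of the other promoter summits. GAGAGA was in 1 of 5, at arf-1, against 17.1%. GATAA and TGANTCA were in none of the 5, against 9.18% and 1.00% of the other promoter summits. With 5 windows such counts are a description, and a match is not shown to be a site of any factor.

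Next in signal was rab-11.1 (WBGene00004274), on I 108682 to 110057, minus strand. RAB-11 proteins work on recycling endosomes. Its peak at I 110516 to 110845 had a signal of 175 in the series list. The ranked lists of the replicates gave it 66.0 in replicate 1 and 106 in replicate 2, with IDR scores of 721 and 1000. Replicate 1 therefore fell short of the score of 830 that is the lowest in every thresholded list. The summit lay 624 bp upstream of rab-11.1 and 357 bp upstream of the divergent gene rpl-7, which encodes a ribosomal protein, and over the exons of the noncoding RNA genes F53G12.15 and F53G12.16.

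The last was rab-18 (WBGene00004277), on III 1078138 to 1080775, minus strand. RAB-18 is found on the endoplasmic reticulum and on lipid droplets. Its peak at III 1080577 to 1080906 had a signal of 122 in the series list and ranked 2254, the weakest of the 5. Its IDR score was 898 in the series list and 833 in the conservative list, close to the threshold. The ranked lists of the replicates gave it 47.4 in replicate 1 and 71.3 in replicate 2, with scores of 185 and 753, and neither replicate's thresholded list held it. The summit was in the 5' UTR of the longest transcript, 33 bp downstream of its start. It was shared with the divergent genes kbp-4, 159 bp away, which encodes a kinetochore protein, and par-2, 659 bp away, which encodes a cell polarity protein.

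The 5 summits were counted by their position relative to a TSS and by passing the threshold, so their distances and signals are given as a description. In 4 of the 5 genes the summit was also in the promoter window of another protein-coding gene, against 33.8% of the 1506 other genes with a promoter summit, and arf-1 was the exception. The nearest own TSS was at least 200 bp away, downstream of the summit, in 4 of 5, with rab-18 the exception, against 51.5% of the others. The median distance upstream was 430 bp in the members and 216 bp in the others. Both distance measures use the summit nearest to a TSS of each gene, while shared windows and signals use its strongest summit. Each of the 5 members had only 1 promoter summit in this list, so the choice bears on the others alone. No tRNA, snoRNA, snRNA or rRNA gene was within 200 bp of the 5 summits, and one was near 10.01% of all 1399 promoter summits. Their median signal was 209, against 148 (quartiles 124 and 205) in the others, while rab-18 with 122 was under the lower quartile. These comparisons rest on 5 genes and were not tested.

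Both genes that the conservative list held in addition had unlike scores in the authors' series lists. For arf-6, whose product acts in endocytosis and recycling at the plasma membrane, the peak at IV 16946793 to 16947122 had a signal of 119.7. Its IDR score was 917 in the conservative list and 500 in the series ranked list. In the replicates it had 51.9 in replicate 1 and 69.2 in replicate 2, and its summit lay 162 bp upstream. The summit was shared with Y116A8C.9, whose TSS was slightly nearer than that of arf-6. For rab-6.2, a Golgi Rab, the peak at X 17221991 to 17222320 had a signal of 107.6 and scores of 868 and 714 in those 2 lists. It had 58.1 in replicate 1 and 55.2 in replicate 2, and its summit lay 319 bp upstream. Both lay close in signal to rab-18, which passed, and it was the score, a measure of reproducibility between lists, that placed them on the other side of the threshold.

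At a series score of 500 or more, a cut chosen after seeing the data, 11 of the 53 members (20.8%) had a promoter summit. Of the other protein-coding genes 14.4% had one. A series score from 500 to under 830 was found at 6 members, which include arf-6 and rab-6.2. Of the rest, arl-13, whose product is a ciliary GTPase, had a signal of 109.8 with a score of 670. The next was rab-30, named for a Golgi Rab of mammals, with 96.3 and a score of 569. It was followed by tbc-12, with 96.0 and 599, and by rab-6.1, a Golgi Rab, with 88.0 and 640. A further 26 genes had a ranked promoter summit with a score under 500, of which 7 had 72, the lowest score in that list. The shares of the other genes in each score band alone were not computed. A ranked promoter summit of any score was found at 69.8% of members, against 49.9% of the other protein-coding genes. Of these 26, tbc-17 had the highest signal with 90.4 and a score of 481, then came arl-8 with 82.3, tbc-1 with 78.8, snx-14 with 77.7, rab-11.2 with 77.5 and tbc-6 with 77.2.

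**Figure D2:**
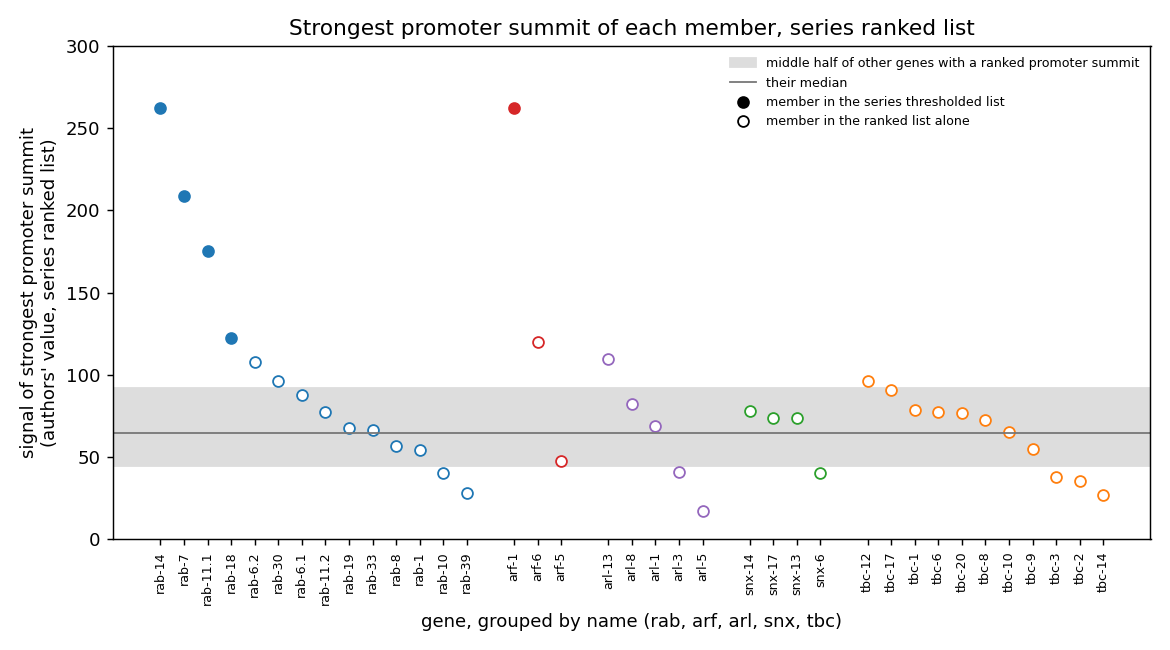
Signal of the strongest promoter summit of each trafficking gene that has one in the series ranked list (authors' value, vertical axis), by gene and grouped by name. Filled points are in the thresholded list, open points are not, and the grey band and line give the quartiles and median (44.7, 92.0 and 64.8) of the 9948 other genes with a ranked promoter summit. The filled points run from 122 to 262.4, and every snx gene and all but 1 tbc gene lie at or below the top of the band.

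The ranked lists also hold peaks that did not pass the threshold, with 65641 peaks in the series list. A promoter summit of any rank was found at 37 of the 53 genes (69.8%, Wilson interval 56.5 to 80.5), against 49.9% of the other protein-coding genes, a share that lies under this interval. In the replicate 1 ranked list it was 40 genes (75.5%), against 55.0%, and in the replicate 2 ranked list 36 genes (67.9%), against 51.5%. The members have more starts than the other genes, with more than 1 TSS in 37.7% against 26.3%. Among genes with 1 TSS the shares in the series ranked list were 66.7% of members (22 of 33) and 46.3% of the others, and among genes with 2 or more TSSs they were 75% (15 of 20) and 60.2%.

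Where a summit was present in the series ranked list, its signal had a median of 73.8 in members (quartiles 54.4 and 96.0), against 64.8 (44.7 and 92.0) in the others. In the replicate 1 ranked list the medians were 39.8 in members and 33.9 in the others. In the replicate 2 ranked list they were 36.5 in members and 36.4 in the others, so the higher median of the members was not seen in replicate 2. The members' summits ran from 16.9 at arl-5 to 262.4 at arf-1. By their strongest ranked summit, 8 of 53 genes (15.1%) were in the top 10% of all protein-coding genes, namely the 5 named first, arf-6, arl-13 and rab-6.2. The median signal was 82.7 in the 14 rab genes with a ranked summit, 72.2 in the 11 tbc genes, 73.6 in the 4 snx genes and 69.1 in the 5 arl genes. The 3 arf genes had 262.4 (arf-1), 119.7 (arf-6) and 47.6 (arf-5).

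The 16 genes with no promoter summit in the series ranked list were arl-6, rab-3, rab-5, rab-21, rab-28, rab-35, rab-37, snx-1, snx-3, snx-27, tbc-7, tbc-11, tbc-13, tbc-16, tbc-18 and tbc-19. They include the Rab of synaptic vesicles (rab-3) and that of early endosomes (rab-5), and partners of the retromer complex (snx-1, snx-3 and snx-27). In a replicate ranked list 5 of them did have one, namely rab-5 (signal 36.4), snx-1 (30.2), tbc-11 (32.4) and tbc-16 (31.6) in replicate 1 and tbc-19 (8.70) in replicate 2. The other 11 had none in any ranked list, and the same share over the other protein-coding genes was not computed. In the series ranked list 49.9% of those genes had a promoter summit, so having none was more frequent among them than among members. A peak list gives no read counts, so a missing summit says only that no peak was called there.

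The X chromosome holds 13 of the 53 genes, and 5 of these (38.5%) had a ranked promoter summit, against 32 of 40 on the autosomes (80%). This pattern was chosen after the values were seen and was not tested. Among the other protein-coding genes the shares were 39.8% on the X chromosome and 51.5% on the autosomes. Members on the X chromosome were thus close to the other X-linked genes, and members on the autosomes were above the other autosomal genes. In the replicate 1 ranked list 61.5% of the X-linked members had one, against 46.7% of the other X-linked genes, and 80% of the autosomal members, against 56.4% of the other autosomal genes. In the replicate 2 ranked list these shares were 38.5% against 42.9% and 77.5% against 52.9%. The X-linked members were thus above the other X-linked genes in replicate 1 and below them in replicate 2.

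The replicates were compared at the 34 genes with a ranked promoter summit in both. Signals correlated across these genes with a Spearman coefficient of 0.636 and a Pearson coefficient of 0.743 on the log2 scale, against 0.613 and 0.645 across 9231 other genes. These are descriptions across genes, which are not replicates, and a gene's strongest summit need not be the same peak in both lists. The value was higher in the replicate 2 list for 20 of the 34 and higher in the replicate 1 list for 14. The median log2 difference, replicate 2 minus replicate 1, was 0.08 in members and 0.07 in the others, so the shift between the lists was alike in both. The signal values are not known to be on 1 scale in both lists, so differences between them describe the deposited values. The median absolute difference between replicates was 0.53 on the log2 scale, against 0.42 in the others. Among the stronger genes rab-11.1, rab-18 and arf-6 were higher in replicate 2 and rab-7 was higher in replicate 1, while arf-1 and rab-14 were nearly equal. Lower in the range tbc-12 had 34.6 in replicate 1 and 57.5 in replicate 2, and rab-30 had 54.0 and 37.3. Read numbers are unknown, so no error can be put on 1 signal value.

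**Figure D3:**
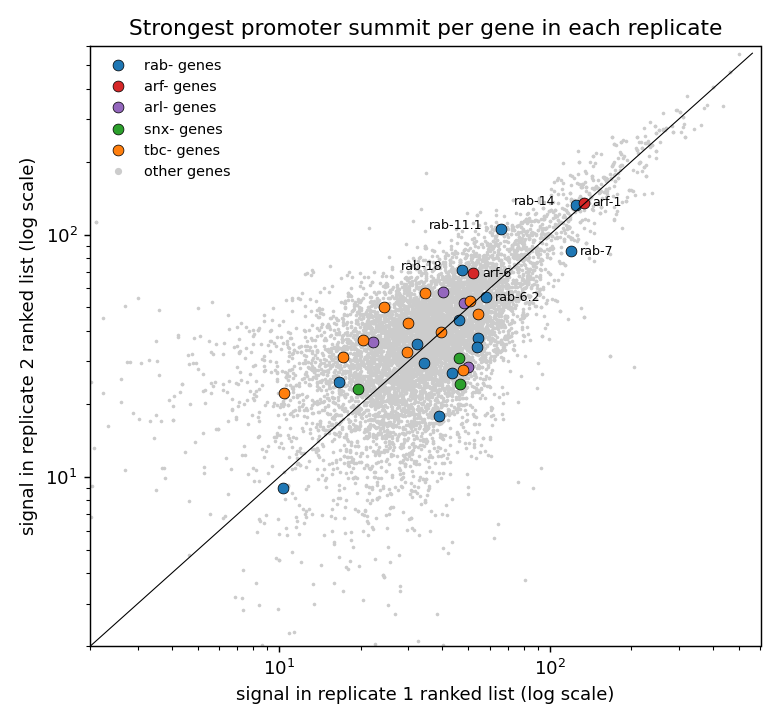
Signal of the strongest promoter summit per gene in the ranked list of replicate 1 (horizontal, log scale) and replicate 2 (vertical, log scale), with the 34 trafficking genes that have one in both lists coloured by name and 9231 other genes in grey. The line marks equal values. The genes arf-1 (133 and 135) and rab-14 (125 and 133) lie nearest to the line at the upper end, and rab-11.1 (66.0 and 106) lies above it.

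Summits were also sought in the whole gene and the 5 kb upstream of it. Counted this way 17 of 53 genes (32.1%, Wilson interval 21.1 to 45.5) had one in the series thresholded list, against 19.1% of the other protein-coding genes, which is under this interval. That window grows with gene length, and the members are longer, with a median of 3411 bp against 2026 bp. The part of length in this difference was not tested. Their 26 gene and summit pairs comprise the 5 promoter summits and 21 others, of which 17 were upstream and 4 in gene bodies. The 12 genes that were added are tbc-6, tbc-8, tbc-9, tbc-10, tbc-12, tbc-13, tbc-14, tbc-19, tbc-20, rab-10, rab-33 and arl-8. The tbc genes make up 9 of these 12, and 17 of the 48 members without a promoter summit. In this window 9 of the 17 tbc genes had a summit, against 19.1% of the other protein-coding genes. Some of these summits lay at tRNA genes or inside neighbouring genes, and the difference was not tested.

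A tRNA gene was within 200 bp of 4 of those 21 summits, 3 of them inside tbc-12 and 1 upstream of tbc-19. The same share over all summits outside promoters was not computed, so this count is a description only. The tbc-12 gene, on X 2525191 to 2532457, held peaks with signals of 268, 237 and 137 at tRNA genes in its introns, and another of 197 lay 4142 bp upstream. The peak 3432 bp upstream of tbc-19 had a signal of 314, and one 4401 bp upstream of tbc-13 had 285. The peak of tbc-8, a gene known for dense core vesicle maturation in neurons, had a signal of 110.2 and its summit in a coding exon. That of rab-10, whose product recycles cargo to the basolateral membrane of the intestine, was 1198 bp upstream with a signal of 205. Both summits near tbc-14 lay in exons of the neighbouring gene pqn-27. They were 1433 bp upstream with a signal of 163 and 3905 bp upstream with 109. Further peaks also lay inside neighbouring genes, such as that of rab-33 in a coding exon of sip-1 (signal 117.6) and both peaks near arl-8 in coq-3 (signals 114.7 and 102).

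**Figure D4:**
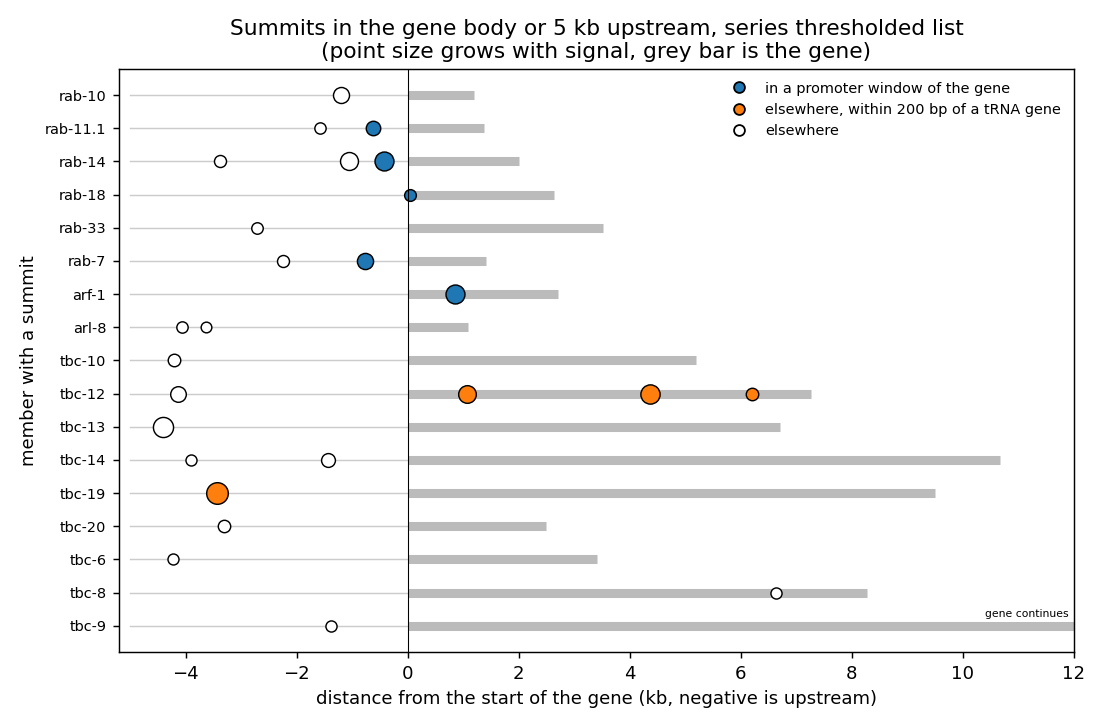
Summits of the series thresholded list in the gene body or the 5 kb upstream of the 17 trafficking genes that have one, by distance from the start of the gene (kb, horizontal, negative is upstream), with 1 gene per row. Blue points lie in a promoter window, orange points lie elsewhere within 200 bp of a tRNA gene, white points lie elsewhere, and point size grows with signal. Of the 26 points 5 are blue, and no tbc gene has a blue point.

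Genes that work with these families were counted from 8 lists made from their known functions. Over all of them 17 of 122 genes (13.9%, Wilson interval 8.89 to 21.2) had a promoter summit in the series thresholded list, against 7.56% of the protein-coding genes outside the 53, which include these 122. The lists were written with earlier results of these data known, and their difference from the other genes was not tested. In the replicate lists 10 of the 122 had one in replicate 1 (against 3.94%) and 10 in replicate 2 (against 4.10%), of which 8 were the same genes. Coverage of the lists was uneven, with 4 of 18 genes for clathrin and its adaptors, 4 of 18 for retromer and endosomal recycling, 3 of 19 Rab regulators, 2 of 7 GTPases of these families with other names, 1 of 8 Arf regulators, 1 of 8 exocyst genes, 1 of 15 coat genes and 1 of 29 genes for SNAREs and their partners.

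Clathrin coats drive endocytosis, and adaptors choose their cargo. The epsin gene epn-1 had a signal of 363 with its summit 464 bp upstream, and 148 in replicate 1 and 218 in replicate 2. The gene for the mu subunit of the endocytic adaptor, dpy-23, had 292 with its summit 316 bp upstream, and 126 in replicate 1 and 163 in replicate 2. The gene for an adaptor beta subunit, apb-1, had 277, and 130.1 in replicate 1 and 141 in replicate 2, with its summit shared with mdt-19. All of these were in both replicate lists. The gene for the clathrin assembly protein unc-11 had 147 and was in the replicate 2 list alone. Among the GTPases with other names, unc-108, a Rab of Golgi and dense core vesicle traffic, had 259 and sar-1, which starts the assembly of the coat of vesicles that leave the endoplasmic reticulum, had 205, and each was in both replicate lists.

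The highest signal in the 8 lists was 619 at sec-15, an exocyst subunit, with 310.3 in replicate 1 and 305 in replicate 2, but its summit lay within 200 bp of a tRNA gene and was shared with C28G1.2. The folliculin gene flcn-1 had 203 and rgef-1 had 219.7, each in both replicate lists, and rme-4, whose product activates RAB-35, had 146 and was in the replicate 2 list. The rgef-1 product is known as an activator of Ras family GTPases rather than of Rabs. The endosomal genes were weaker, with 145 at chat-1 (near a snoRNA gene), 133 at num-1, 118.1 at the dynamin gene dyn-1 and 110.5 at rme-1, and none of these was in the replicate 2 list. In the replicate 1 list were chat-1 and dyn-1. The remaining genes were syx-5, a Golgi syntaxin, with 138, copz-1, a coat subunit of Golgi vesicles, with 127.6, and gbf-1, which activates Arf proteins, with 116, and none of these was in either replicate list.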

How the data were processed

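The deposited files are ChIP-seq peak lists on ce11, per the file headers and labels, for each of 2 biological replicates of 1 group and for both together. Each peak has a signal value and an IDR score, which the authors deposited. Aligner and peak caller: not given in the sources used here. Members were compared with other genes within a list. Values of the replicates were also compared between their own lists, although no source used here says that these share a scale. Read depth is unknown. In the ranked lists 32 further columns, which no header names, hold values of each list's inputs and were not used. A control experiment that the labels name was not analysed here. Which ranked list belongs to which series thresholded list was found from the peaks they share.

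Genes came from Ensembl release 115 (WBcel235), with 29314 protein-coding TSSs on the 6 nuclear chromosomes, and every peak lay within its chromosome. Members and lists were chosen with earlier results of these data known, so no set test was run: counts stand beside those of all other protein-coding genes, with 95% Wilson intervals. Genes were named if they had a promoter summit in any thresholded list, were among the 10 next strongest in the ranked list, had a summit in the gene body or upstream, or were pathway genes with a promoter summit; other members are named to account for all. Of the 134 names in the pathway lists, 122 matched; rgef-1, gap-3 and dnj-27 were placed there but are better known in other processes. Promoter assignment was tested on simulated data. Python 3.11.15, pandas 2.3.3 and scipy 1.17.1 were used.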

Additional observations from a re-analysis of the deposited data

How the results depend on the processing

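The count of 5 genes with a promoter summit stayed within 1.5 times under the conservative list, the stronger peaks, any overlap of the peak, the most upstream TSS alone and without summits near small RNA genes. It became 3 (5.66%, against 4.23% of the others) with promoters from 500 bp upstream to 100 bp downstream. It became 8 (15.1%, against 10.4%) with promoters from 2000 bp upstream, where rab-10, tbc-9 and tbc-14 came in, and 3 (5.66%, against 6.39%) with the nearest TSS only, without rab-7 and rab-11.1. Leaving out a replicate, with the other replicate's list in place of the series list, gave 3 to 4, with 3 (5.66%, against 3.94% of the others) without replicate 2 and 4 (7.55%, against 4.10%) without replicate 1. Taking ranked peaks with a score of 500 or more, chosen after seeing the data, gave 11 (20.8%, against 14.4% of the others). The difference in share between members and others ran from -0.73 percentage points with the nearest TSS only to 6.34 with the score of 500, so its direction turned under the nearest TSS. All of these lie inside the interval of -3.48 to 12.7.

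The median percentile of members among all genes by their strongest ranked summit was 68.5. It was 64.2 to 70.1 without a replicate, 63.1 with the most upstream TSS only, and 32.8 with the narrow promoter, where 47.2% of members and 34.3% of the others had a ranked summit, so that the median member had none. No paired analysis was possible because both samples form 1 group. The lists hold no read counts, so the error of the signal values cannot be judged.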
